A study of Mus musculus with 2 samples.

Results

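Cell cycle genes across the T cell lineages of mouse melanomas were described through 49 genes, of 31053 mouse genes measured. The 49 were taken by name, for their known part in DNA replication or mitosis. The rule that named them assigned 10 (*Mcm2* to *Mcm7*, *Pcna*, *Tyms*, *Rrm1* and *Rrm2*) to S phase and the other 39 to G2 and mitosis (G2/M). All 49 were found in the data, and all 49 had at least 20 UMIs (unique molecular identifiers, 1 for each captured RNA molecule) in CD8+, T_reg_ and T_conv_ cells taken in pairs.

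The study profiled TCR-β+ T cells, sorted from transplanted mouse B16 melanomas and from B16–IL-33 tumors, whose melanoma cells express IL-33, 9 days after inoculation. Hashtag antibodies marked the tumors, and the pooled cells gave 1 gene expression library with matching hashtag and T cell receptor (TCR) libraries. Both groups are tumors of the B16 line, and no treatment was involved. There was 1 pool, and although each tumor condition has 2 numbered hashtags, no test over hashtags was run. The gene expression library held 43420305 mouse UMIs in 14035 cell barcodes, and the deposited values were raw UMI counts.

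A dividing cell licenses and fires its replication origins, supplies itself with nucleotides in S phase, and then builds a spindle, checks the attachment of each chromosome and cuts the cohesin that holds sister chromatids. T cells leave a resting state when antigen and costimulation are sensed, and in tumors both cytotoxic CD8+ T cells and regulatory T (T_reg_) cells are known to divide. Transcripts of the replication machinery peak before and during S phase, while those of the mitotic machinery peak in G2 and mitosis.

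Cells were kept if they had at least 200 detected genes and under 5% mitochondrial UMIs, with no upper limit on genes, which left 9844 cells with 254 to 78650 UMIs and a median of 2639. A cell was called CD8+ where *Cd8a* and *Cd8b1* UMIs exceeded those of *Cd4* and *Foxp3* (1538 cells). T_reg_ cells had at least 1 *Foxp3* UMI and no CD8 UMI (2833 cells), and 539 of them also had a UMI of *Il1rl1*, which encodes the IL-33 receptor. Conventional CD4+ T (T_conv_) cells had at least 1 *Cd4* UMI and none of *Foxp3* or CD8 (1813 cells). Natural killer T (NKT) cells were sought as cells with at least 1 *Zbtb16* UMI and none of *Foxp3* or CD8 (89 cells, 26 of them also counted as T_conv_). The other 3597 cells fell into no lineage.

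The labels were checked against markers, in UMIs of a gene summed over a group divided by all mouse UMIs of the same cells and given in parts per 1e6 (CPM). *Cd3e*, a chain of the TCR complex, stood at 754 CPM in CD8+, 864 in T_reg_, 835 in T_conv_ and 612 in *Zbtb16*+ cells. Markers that the T_reg_ rule did not use were higher there than in T_conv_ cells: *Il2ra* at 411 against 107 CPM and *Ctla4* at 1054 against 396. Of the *Zbtb16*+ cells, 33 had a productive TCR α chain, and in 20 of them it joined TRAV11 to TRAJ18, the invariant chain of NKT cells. Because 73 of the 89 rest on 1 *Zbtb16* UMI, they are called *Zbtb16*+ cells here. Likewise 1178 T_reg_ cells rest on 1 *Foxp3* UMI and 273 *Il1rl1*+ T_reg_ cells on 1 *Il1rl1* UMI.

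Depth differed between the lineages, with a median of 4189 UMIs per CD8+ cell, 2974 per T_reg_ cell, 2543 per T_conv_ cell and 3095 per *Zbtb16*+ cell. RNA of other cell types was present. The 6 melanoma genes together reached 235 CPM in CD8+, 106 in T_reg_, 337 in T_conv_ and 683 in *Zbtb16*+ cells, led by *Dct*. The 9 myeloid genes reached 788, 614, 443 and 380 CPM in the same order. In *Zbtb16*+ cells 1 cell with 2 or more melanoma UMIs held nearly all of them, and the other 88 stood at 2.82 CPM. Fibroblast genes stood at no more than 1.25 CPM in these lineages. All intervals below are 95% intervals (exact Poisson for CPM, exact Clopper-Pearson for shares, conditional binomial for ratios), and they cover counting error only.

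CD8+ cells carried the most cell cycle RNA and T_reg_ cells came next. For the 45 narrow members, that is all but *Stmn1*, *Tubb5*, *Tuba1b* and *Hmgb2*, which resting cells also hold, the summed level was 1806 CPM (1780 to 1834) in CD8+ cells and 1482 CPM (1460 to 1505) in T_reg_ cells. T_conv_ cells had 810 CPM (787 to 834), and *Zbtb16*+ cells 686 CPM (606 to 773). The intervals of CD8+, T_reg_ and T_conv_ cells did not overlap. That of *Zbtb16*+ cells lay just below that of T_conv_ cells. These 2 groups are not separate, since 26 of the 89 *Zbtb16*+ cells are in both, and 1 of the 89 is rich in melanoma RNA. The intervals of their cycling shares, given below, overlapped. Within T_reg_ cells, *Il1rl1*+ cells stood at 1238 CPM (1191 to 1287) and *Il1rl1*- cells at 1538 CPM (1512 to 1563).

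**Figure D1:**
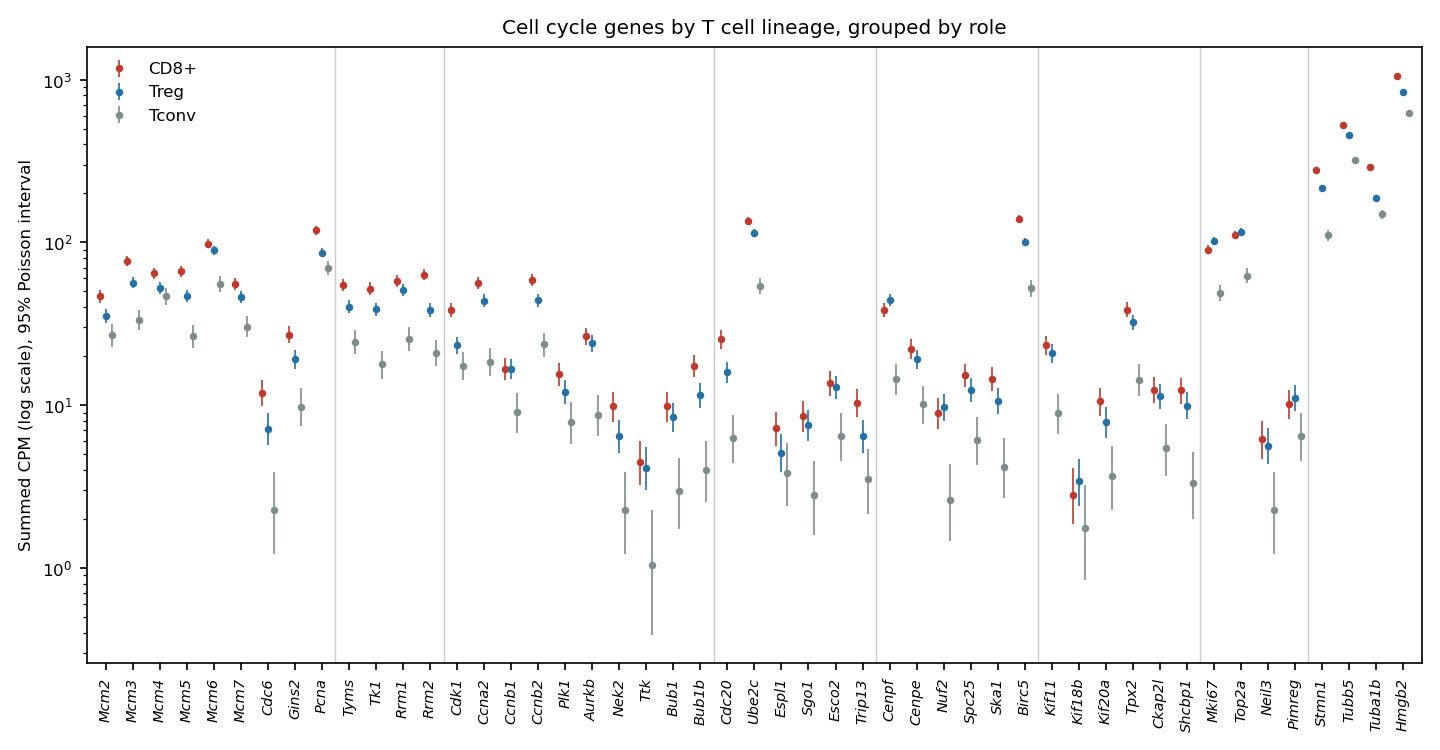
Summed level of each of the 49 cell cycle genes (horizontal axis, grouped by role) in CPM on a log scale (vertical axis), with points for CD8+, T_reg_ and T_conv_ cells and bars for 95% Poisson intervals. The CD8+ point lies above the T_conv_ point for all 49 genes, and the T_reg_ point lies at or above the CD8+ point for 7 genes, *Mki67*, *Top2a* and *Cenpf* among them.

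Against T_conv_ cells, nearly every member was higher in CD8+ cells. The ratio of summed CPM was at least 1.5 for 48 of 49 members, where 10.1% of 11108 mouse genes with at least 20 UMIs passed that fold upward. The median ratio was 2.50, beside 0.916 over all of those genes. The exception was *Mcm4*, a helicase subunit, at 1.39 (1.20 to 1.61). The interval lay above 1 for 48 members and spanned it for *Kif18b* at 1.61 (0.756 to 3.73).

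The replication and licensing genes, which mark and open origins, had the smallest rise among the narrow groups but for the chromosome group. *Pcna*, the sliding clamp of the polymerases, stood at 118 CPM in CD8+ and 69.6 CPM in T_conv_ cells, and *Mcm6*, a subunit of the replicative helicase, at 98.1 against 55.8 CPM. The group's lowest ratio was that of *Mcm4* and its highest that of *Cdc6*, which loads the helicase, at 5.24 (2.94 to 10.1). *Mcm2*, *Mcm3*, *Mcm5*, *Mcm7* and *Gins2*, another part of the active helicase, lay between, and the median of the 9 was 1.84. The 4 genes of nucleotide supply rose further, to a median of 2.59. *Rrm1* and *Rrm2*, the subunits of ribonucleotide reductase, stood at 57.9 and 63.5 CPM in CD8+ cells against 25.5 and 21 CPM in T_conv_ cells. *Rrm2* had the group's highest ratio, 3.03 (2.48 to 3.71), and *Tyms*, thymidylate synthase, its lowest, 2.24 (1.86 to 2.72). *Tk1*, which salvages thymidine, was at 2.92.

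Cyclins and mitotic kinases had a median of 3.05 over 10 genes, the highest of the groups here but not in 3 other settings. These were equal weight per cell (the mean of the cells' own CPM), cells of 200 to 2500 genes, and clean T cells (a CD3 UMI and under 2 melanoma or myeloid UMIs). *Ccna2*, the cyclin of S phase and G2, stood at 56.7 CPM in CD8+ and 18.5 CPM in T_conv_ cells, and *Ccnb2*, a mitotic cyclin, at 58.5 against 23.6 CPM. *Bub1b*, of the spindle checkpoint, had the highest ratio at 4.34 (2.79 to 7.03), and *Ccnb1*, the main mitotic cyclin, the lowest at 1.84 (1.34 to 2.56). *Cdk1*, the kinase that drives mitosis, and *Plk1*, *Aurkb*, *Nek2*, *Ttk* and *Bub1*, kinases of the spindle and its checkpoint, fell within that range. *Cdk1* was among the smaller rises, at 2.20 (1.76 to 2.78).

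The 6 genes of the anaphase-promoting complex and cohesion had a median ratio of 2.73. *Ube2c*, the ubiquitin-conjugating enzyme of that complex, stood at 136 CPM in CD8+ and 54.2 CPM in T_conv_ cells, and *Cdc20*, its activator, at 25.4 against 6.29 CPM. The ratio of *Cdc20*, 4.03 (2.83 to 5.89), was the highest of the group, and that of *Espl1*, the protease that cuts cohesin, the lowest at 1.87 (1.14 to 3.18). *Sgo1*, which protects cohesin at centromeres, *Esco2*, which acetylates it, and *Trip13*, which remodels a checkpoint protein, lay between. Among 6 kinetochore and centromere genes, with a median of 2.66, *Birc5*, of the chromosomal passenger complex, stood at 139 against 52.1 CPM and *Cenpf* at 38.5 against 14.5 CPM. *Ska1*, which couples kinetochores to microtubules, had the highest ratio at 3.46 (2.23 to 5.58) and *Cenpe*, a kinetochore motor, the lowest at 2.18 (1.63 to 2.97). *Nuf2* and *Spc25*, subunits of one kinetochore complex, were at 3.42 and 2.49.

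Spindle motors and spindle proteins rose by a median of 2.65. *Tpx2*, a spindle assembly factor, stood at 38.6 CPM in CD8+ and 14.3 CPM in T_conv_ cells, and *Kif11*, the motor that pushes the poles apart, at 23.3 against 8.92 CPM. *Shcbp1* had the highest ratio at 3.71 (2.27 to 6.38), with *Kif20a*, a cytokinesis motor, and *Ckap2l* between it and *Kif18b*. The chromosome group had a median of only 1.81. *Mki67*, whose protein coats mitotic chromosomes, stood at 90.2 against 49 CPM, and *Top2a*, which untangles DNA, at 111 against 62.6 CPM. *Neil3*, a DNA glycosylase, was highest at 2.71 (1.47 to 5.39) and *Pimreg* lowest at 1.57 (1.06 to 2.35). Of the 4 broadly held genes, the tubulins *Tubb5* and *Tuba1b* were at 1.65 and 1.97, the chromatin protein *Hmgb2* at 1.69, and *Stmn1*, a microtubule destabilizer, at 2.52. With cells limited to 200 to 2500 genes, *Ccnb1* was no longer higher in CD8+ cells, and the other 48 members were.

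T_reg_ cells also exceeded T_conv_ cells, by less and less evenly. The ratio was at least 1.5 for 41 of 49 members, where 13.4% of 11314 genes passed upward, and the median was 1.96 beside 1.04 over all genes. The 8 members under 1.5 were *Mcm2*, *Mcm4*, *Pcna*, *Cdk1*, *Espl1*, *Tubb5*, *Tuba1b* and *Hmgb2*, so the S genes and the broadly held genes gave most of the exceptions. The S genes had a median of 1.62 and the 39 others 2.10. The highest ratios were those of *Ttk*, a checkpoint kinase, at 3.93 (1.67 to 11.3) and of *Nuf2* at 3.72 (2.16 to 6.88), and the lowest was that of *Mcm4* at 1.13 (0.973 to 1.31). *Tk1* led the nucleotide genes at 2.18, *Sgo1* the cohesion genes at 2.69, *Cenpf* reached 3.06, *Shcbp1* 2.99 and *Neil3* 2.48.

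This difference leaned on large cells. With cells of 200 to 2500 genes alone, 17 members were at least 1.5-fold higher in T_reg_ than in T_conv_ cells, 7 members were lower (*Mcm2*, *Mcm4*, *Mcm7*, *Pcna*, *Tyms*, *Tuba1b* and *Hmgb2*), and the median of the S genes was 1.02. The share over all genes was not taken for these cells, so the count of 17 has no background. With equal weight per cell, *Mcm2*, *Mcm4*, *Mcm7* and *Neil3* were lower in T_reg_ cells. Higher levels in T_reg_ than in T_conv_ cells were therefore clearer for the mitotic genes than for the replication genes in these data.

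Between CD8+ and T_reg_ cells the S genes went one way and the G2/M genes both ways. The ratio of CD8+ to T_reg_ cells was at least 1.5 for 8 of 49 members, where 9.15% of 11532 genes passed upward. The median was 1.24 beside 0.896 over all genes. The 8 were *Cdc6* at 1.66 (1.24 to 2.24), *Rrm2* at 1.65 (1.46 to 1.87), *Cdk1* at 1.65 (1.40 to 1.94), *Trip13* at 1.60, *Cdc20* at 1.59, *Tuba1b* at 1.56, *Nek2* at 1.52 and *Bub1b* at 1.51. All 10 S genes were higher in CD8+ cells with intervals above 1, from *Mcm6* at 1.10 to *Rrm2*, and their median was 1.34.

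A few G2/M genes went the opposite way, among them 3 of 4 genes of the chromosome group and 2 of 6 kinetochore genes. *Mki67* stood at 90.2 CPM (84.3 to 96.4) in CD8+ cells and at 102 CPM in T_reg_ cells, a ratio of 0.882 (0.806 to 0.964), and *Cenpf*, a large kinetochore protein, had a ratio of 0.869 (0.757 to 0.996). *Top2a* at 0.964, *Nuf2*, *Pimreg*, *Kif18b* and *Ccnb1* were under 1 with intervals that spanned it. *Mki67*, *Cenpf*, *Top2a* and *Nuf2* were also under 1 with equal weight per cell, with 200 to 2500 genes, and in clean T cells, while *Pimreg* and *Kif18b* were over 1 in the first 2 of these settings. The count of members at least 1.5-fold higher in CD8+ cells was 16 with equal weight per cell, 17 with 200 to 2500 genes, and 5 in clean T cells, without a share over all genes in these settings. The 10 S genes were higher in CD8+ than in T_reg_ cells in each of these 3 settings.

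Among T_reg_ cells, most members were lower where the IL-33 receptor gene was detected, and so were markers of other cells: myeloid genes stood at 247 CPM in *Il1rl1*+ and 697 CPM in *Il1rl1*- cells, and melanoma genes at 55.4 and 117 CPM. Among cycling cells the melanoma genes stood at 10.2 and 436 CPM. The ratio of *Il1rl1*+ to *Il1rl1*- cells was under 1 for 40 of 49 members, with a median of 0.794 beside 0.996 over all genes. The interval lay below 1 for 19 members and above 1 for 0. No share over all genes was taken for these counts by direction or by interval. The ratio was at most 1/1.5 for 9 of 49 members, where 10.8% of 10642 genes passed downward, so that count is not far from the background. In clean T cells 39 members were under 1, with a median of 0.824, and 10 were at most 1/1.5. The 9 were *Shcbp1* at 0.390 (0.174 to 0.771), *Bub1b* at 0.496, *Aurkb* at 0.514 (0.335 to 0.762), *Pimreg* at 0.518, *Ccnb2* at 0.533 (0.393 to 0.710), *Tk1* at 0.578, *Rrm2* at 0.584, *Esco2* at 0.592 and *Tyms* at 0.643. The 4 genes of nucleotide supply had a median of 0.614.

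*Mki67* and *Top2a* were near 1 instead. *Mki67* was at 106 CPM in *Il1rl1*+ and 101 CPM in *Il1rl1*- T_reg_ cells, a ratio of 1.04 (0.897 to 1.21), and *Top2a* at 121 against 114 CPM, a ratio of 1.06 (0.923 to 1.22). *Mki67* was under 1 among cells of 200 to 2500 genes (0.984) and in clean T cells (0.981), and 1.28 with equal weight per cell. Only *Kif18b*, a motor that shortens microtubules, was at least 1.5-fold higher, at 1.58 (0.685 to 3.35) from 10 UMIs. Among cells of 200 to 2500 genes, 20 members were at least 1.5-fold lower in *Il1rl1*+ cells. No share over all genes was taken for that setting, so this count has no background. Because a cell with more UMIs is more likely to show *Il1rl1*, depth and *Il1rl1* calls are linked, and the medians of 3079 and 2947 UMIs were close.

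*Zbtb16*+ cells were set against T_conv_ cells although 26 of the 89 are in both groups. The intervals take the groups as separate, so they hold only roughly here. They left out 1 for 6 members, and no share over all genes was taken for that count. The cell rich in melanoma RNA was included. Of the 40 members with at least 20 UMIs, 17 were at least 1.5-fold lower, where 23.7% of 9732 genes passed downward. Of these 17, 7 had 0 UMIs, which allows up to 7.65 CPM (3 UMIs of 392126), and their levels in T_conv_ cells were 3.85 to 8.74 CPM, none of them at least 1.5 times that limit, so a 1.5-fold difference was not detectable for them at this depth. The other 10 had at least 1 UMI. The median ratio was 0.729, and 1.05 with the members at 0 set to that limit. In clean T cells, without the cell rich in melanoma RNA, the median over 49 members was 0.380 with the members at 0 counted as 0, and 21 were at least 1.5-fold lower. That median is not comparable with 1.05, since it takes undetected members as 0. The count of 21 may include such members, and no share over all genes was taken for clean T cells. The interval lay below 1 for *Ccnb2* at 0.216 (0.0259 to 0.796), *Ube2c* at 0.376, *Top2a* at 0.448, *Stmn1* at 0.647 and *Hmgb2* at 0.720, and above 1 for *Mcm2* at 1.80 (1.05 to 2.91). The S genes had a median of 1.24, which fell to 0.965 with equal weight per cell. In all, 13 members had 0 UMIs in these 89 cells, and 9 had too few for a ratio.

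To count dividing cells, each cell was thinned to 1500 UMIs by 1 random draw, so that depth did not decide the call, and called cycling where at least 3 distinct narrow members had a UMI. Cells under 1500 UMIs were left out: 109 CD8+, 454 T_reg_, 322 T_conv_ and 2 *Zbtb16*+ cells. Just inside the threshold, with exactly 3 members, were 55 CD8+, 87 T_reg_ and 40 T_conv_ cells, and just outside it, with 2, were 146, 212 and 117. At least 10 members were seen in 27 CD8+, 41 T_reg_ and 9 T_conv_ cells.

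The share of cycling cells was 17.2% (15.3 to 19.3%; 246 of 1429 cells) in CD8+, 11.7% (10.5 to 13.1%; 279 of 2379) in T_reg_ and 6.04% (4.88 to 7.37%; 90 of 1491) in T_conv_ cells. It was 4.6% (1.27 to 11.4%; 4 of 87) in *Zbtb16*+ cells, and 8.05% with another thinning draw, which the interval does not cover as a source of error. Without thinning the shares were 34.1%, 20.4%, 11.4% and 15.7%. CD8+ cells exceeded T_conv_ cells by 11.2 percentage points (8.84 to 13.5) and T_reg_ cells by 5.49 points (3.13 to 7.90), and T_reg_ exceeded T_conv_ cells by 5.69 points (3.85 to 7.48). The order CD8+, T_reg_, T_conv_ was found in 14 of 14 alternative settings, though not within each range of depth, as given below. Among cells of 200 to 2500 genes the shares were 9.12%, 6.40% and 5.11% with the same draw, and 9.04%, 6.64% and 3.59% with a new draw, so the draw alone moves the T_conv_ share.

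Cells that express genes of rest gave the background of this call. Cells with at least 4 of 10 genes of quiescence, such as *Klf2*, *Tcf7*, *Il7r*, *Btg1* and *Foxo1*, were cycling in 2.42% of CD8+ (6 of 248), 2.94% of T_reg_ (11 of 374) and 2.35% of T_conv_ cells (12 of 511), at median depths of 3156.5, 2812 and 2601 UMIs. All 3 lineages as a whole lay above that level. Cells with 0 of the 10 genes were cycling in 45.9% of CD8+, 30.8% of T_reg_ and 22.6% of T_conv_ cells, and their median depths were 9525, 5052.5 and 4805 UMIs. Narrow members summed to 2898 CPM in such CD8+ cells and to 498 CPM in the CD8+ cells with at least 4.

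**Figure D2:**
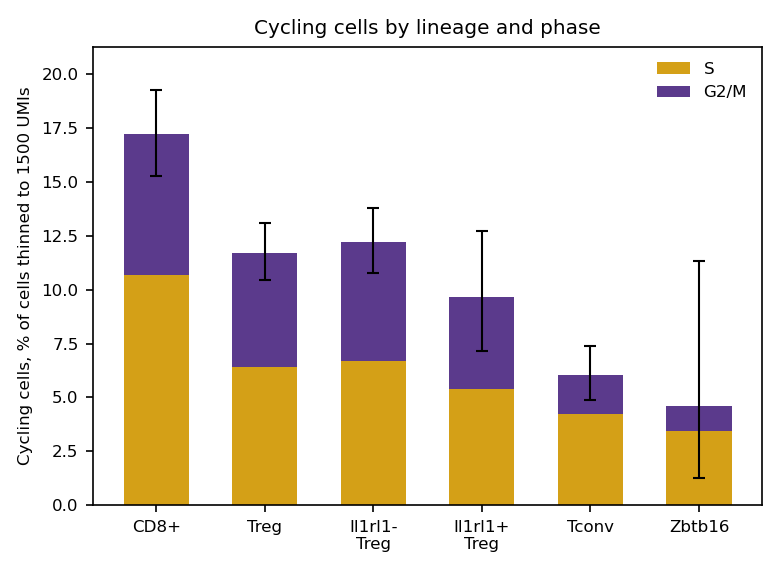
Share of cycling cells (vertical axis, percent of cells thinned to 1500 UMIs) in 6 groups of T cells (horizontal axis), split into S (yellow) and G2/M (purple); bars on the total are 95% Clopper-Pearson intervals. CD8+ cells stand at 17.2%, T_reg_ cells at 11.7% and T_conv_ cells at 6.04%, and the interval of the 87 *Zbtb16*+ cells spans 1.27 to 11.4%.

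Cycling cells were also the cells with the most RNA. Before thinning, the median was 10640.5 UMIs in cycling and 3892 in other CD8+ cells, 8169 and 3191 in T_reg_ cells, and 4849.5 and 2781 in T_conv_ cells. Among cells of at least 5000 UMIs, 33.3% of CD8+ (29.7 to 37.1%), 32.6% of T_reg_ (29.0 to 36.4%) and 19.6% of T_conv_ cells (14.7 to 25.5%) were cycling. Among cells of 2500 to 5000 UMIs the shares were 4.55%, 4.14% and 3.55%, and among cells of 1500 to 2500 UMIs 2.73%, 3.35% and 3.73%. Below 5000 UMIs the intervals of the 3 lineages overlapped, and from 1500 to 2500 UMIs the order was turned. From 5000 UMIs those of CD8+ and T_reg_ cells overlapped as well, and that of T_conv_ cells lay below both. The deepest group held 646 of 1429 CD8+ and 653 of 2379 T_reg_ cells, and it has no upper bound, so depth within it was not matched. Whether depth followed division or the reverse was not tested. An upper limit of 2500 genes would remove 57.3% of cycling CD8+ cells, 50.5% of cycling T_reg_ cells and 17.8% of cycling T_conv_ cells.

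Doublets and other cell types were looked at beside these shares. At least 2 productive TCR β chains, a mark of doublets, were found in 11.6% of cycling and 11.5% of other CD8+ cells with a β chain, in 6.70% and 11.4% of T_reg_ cells, and in 7.69% and 10.4% of T_conv_ cells. The 6 melanoma genes summed to 218 CPM in cycling and 245 CPM in other CD8+ cells, to 372 and 24.0 CPM in T_reg_ cells, and to 2353 and 73.2 CPM in T_conv_ cells. *Dct*, the most abundant of them, was at 1282 CPM in cycling T_conv_ cells, and none of the 6 was at 0 there. The 9 myeloid genes were lower in cycling than in other cells. They summed to 547 against 907 CPM in CD8+, 282 against 741 CPM in T_reg_ and 226 against 492 CPM in T_conv_ cells. Of T_conv_ cells with under 2 melanoma UMIs, 5.75% (85 of 1479) were cycling, and 41.7% (5 of 12) of those with 2 or more. In T_reg_ cells these shares were 11.6% (274 of 2366) and 38.5% (5 of 13), and in CD8+ cells 17.2% (244 of 1417) and 16.7% (2.09 to 48.4%; 2 of 12). In *Zbtb16*+ cells 1 of the 4 cycling cells had 2 or more melanoma UMIs, and without it the share was 3.49% (3 of 86).

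*Il1rl1*+ T_reg_ cells were cycling in 9.68% (7.15 to 12.7%; 45 of 465) and *Il1rl1*- T_reg_ cells in 12.2% (10.8 to 13.8%; 234 of 1914), a difference of −2.55 points (−5.52 to 0.829). The interval included 0 here but not with cells thinned to 2500 UMIs, where the difference was −5.52 points (−9.91 to −0.651), nor with lineages called on the thinned counts, where it was −6.25 points (−8.85 to −2.58). Without thinning, 17.6% and 21.1% were cycling.

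Each cycling cell was given a phase: S where the share of the 10 S genes with a UMI was at least that of the other 39, and G2/M otherwise. By this call 62.2% (55.8 to 68.3%) of cycling CD8+, 54.8% (48.8 to 60.8%) of cycling T_reg_ and 70.0% (59.4 to 79.2%) of cycling T_conv_ cells were in S. Of all cells, 10.7% of CD8+, 6.43% of T_reg_ and 4.23% of T_conv_ cells were in S, and 6.51%, 5.30% and 1.81% in G2/M. The S share of cycling CD8+ cells exceeded that of T_reg_ cells by 7.36 points (−1.36 to 15.9), an interval that included 0. Another thinning draw alone gave 3.51 points. With new draws it was −1.66 points among cells of 200 to 2500 genes, −0.388 with a mitochondrial limit of 10% and −0.708 without cells that had 2 or more TCR β chains. With the same draw kept, the first and the last of these were 5.84 points (−7.15 to 18.5) and 9.46 points (0.385 to 18.3), so the sign depended on the draw. The interval lay above 0 in the last of these, with cells thinned to 1000 UMIs at 15.1 points (4.75 to 25.1), and without thinning at 8.50 points (3.41 to 13.5).

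Genes outside the list moved with these calls. The 37 other replication genes summed to 3621 CPM in S and 2432 CPM in G2/M cells of the CD8+ lineage, against 915 CPM in CD8+ cells not cycling. The 35 other mitosis genes summed to 2154 CPM in S, 3963 CPM in G2/M and 615 CPM in the rest. In T_reg_ cells the replication genes stood at 3614, 2387 and 636 CPM, and the mitosis genes at 2098, 4815 and 633 CPM. Both called phases were thus above the cells not cycling in both lists, and each phase led in its own list. The 12 histone genes of replication did not follow this: they summed to 767 CPM in S and 989 CPM in G2/M cells of the CD8+ lineage, to 805 and 1291 CPM in T_reg_ cells, and to 535 and 1067 CPM in T_conv_ cells.

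Sorted by these 72 outside genes instead, the members fell mostly where the rule had put them. Cells with at least 3 of the 72 were divided into 1887 with the larger share of replication genes and 1794 with the larger share of mitosis genes, at median depths of 4383 and 3802.5 UMIs. These took in 70.1% of CD8+, 58.6% of T_reg_ and 52.0% of T_conv_ cells, far more than were called cycling, so most of them were not cycling by the call above. All 10 S genes were higher in the group with more replication genes. Of the other 39, 35 were higher in the group with more mitosis genes, led by *Cenpf* at 6.36 times (5.34 to 7.63), *Ube2c* at 5.27, *Pimreg* at 4.89 and *Plk1*, a kinase active through mitosis, at 4.79. The remaining 4 did not follow: *Cdc6* at 0.197 (0.127 to 0.295), *Gins2* at 0.439 and *Tk1* at 0.702 were higher in the replication group, and *Trip13* at 1.00 (0.743 to 1.35) in neither. Placing *Cdc6*, *Gins2* and *Tk1* with the S genes left the S share difference between CD8+ and T_reg_ cells at 6.98 points.

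The members were concentrated in a minority of cells. For each gene, the cells with at least 3 other narrow members were taken at full depth. These were 1175 to 1309 cells, 19.0 to 21.2% of the cells of the lineages, and they held 41.2 to 43.7% of all UMIs. This call on full counts takes in deep cells more readily and is not the cycling call above. The median share of a member's UMIs in those cells was 92.3%, and 44 of 49 members had at least 80%. *Neil3* at 97.8%, *Shcbp1* at 97.6% and *Pimreg* at 97.3% were the most concentrated. The 5 under 80% were *Mcm4* at 64.0% (61.5 to 66.5%), *Mcm6* at 68.8%, *Pcna* at 69.3%, *Tubb5* at 70.6% and *Hmgb2* at 71.5%, so more of the RNA of 3 replication genes lay outside those cells. All 35 narrow G2/M genes were at 81.2% or more. *Stmn1*, counted among the broad genes beforehand, was at 92.1%.

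Within cycling cells, the direction of the members between CD8+ and T_reg_ cells depended on the cells kept. These cells were called by the same narrow members, so the call limits how the levels compared here can differ. Depth was not matched either, with medians of 10640.5 UMIs in cycling CD8+ and 8169 in cycling T_reg_ cells. The part of the call and of depth in these ratios was not tested. The ratio of cycling CD8+ to cycling T_reg_ cells was under 1 for 36 of 49 members, with a median of 0.902 beside 0.912 over all genes. It was under 1 for 33 members with equal weight per cell (median 0.931) and for 41 in clean T cells (median 0.863), but among cells of 200 to 2500 genes 25 were over 1 and 24 under, with a median of 1.00. Of the 10 S genes 7 were under 1 (median 0.954), and 8 were over 1 with equal weight per cell (median 1.06) and among cells of 200 to 2500 genes (median 1.25). The interval lay below 1 for 15 members, from *Nuf2* at 0.617 to *Ube2c* at 0.909, and above 1 for 4. No share over all genes was taken for these counts by direction or by interval. The median over all genes was itself under 1, so a lean of the members below 1 is not particular to them. The ratio was at most 1/1.5 for 4 of 49 members, where 19.7% of 9417 genes passed downward, so that count is below the background. The 4 were *Cenpf* at 0.651 (0.564 to 0.751), *Nuf2* at 0.617 (0.448 to 0.846), *Pimreg* at 0.662 (0.498 to 0.878) and *Kif18b* at 0.612 (0.342 to 1.08). *Mki67*, just outside, stood at 231 against 341 CPM, a ratio of 0.678 (0.614 to 0.749), and *Top2a* at 273 against 364 CPM, a ratio of 0.749 (0.682 to 0.823).

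The other direction was smaller. *Cdk1* was at 1.22 (1.03 to 1.45), *Tuba1b* at 1.19 (1.11 to 1.27), *Rrm2* at 1.18 (1.03 to 1.35) and *Pcna* at 1.15 (1.02 to 1.29), all higher in cycling CD8+ cells. *Hmgb2* at 1.00 (0.967 to 1.04) and *Birc5* at 0.978 (0.897 to 1.07) did not differ beyond counting error. *Mki67* was lower in cycling CD8+ cells also with equal weight per cell (0.609), among cells of 200 to 2500 genes (0.576) and in clean T cells (0.649), and *Cenpf* likewise at 0.555, 0.627 and 0.609. *Pimreg* was at 1.00 among cells of 200 to 2500 genes. The cells of 200 to 2500 genes and the clean T cells were also thinned anew for these ratios.

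**Figure D3:**
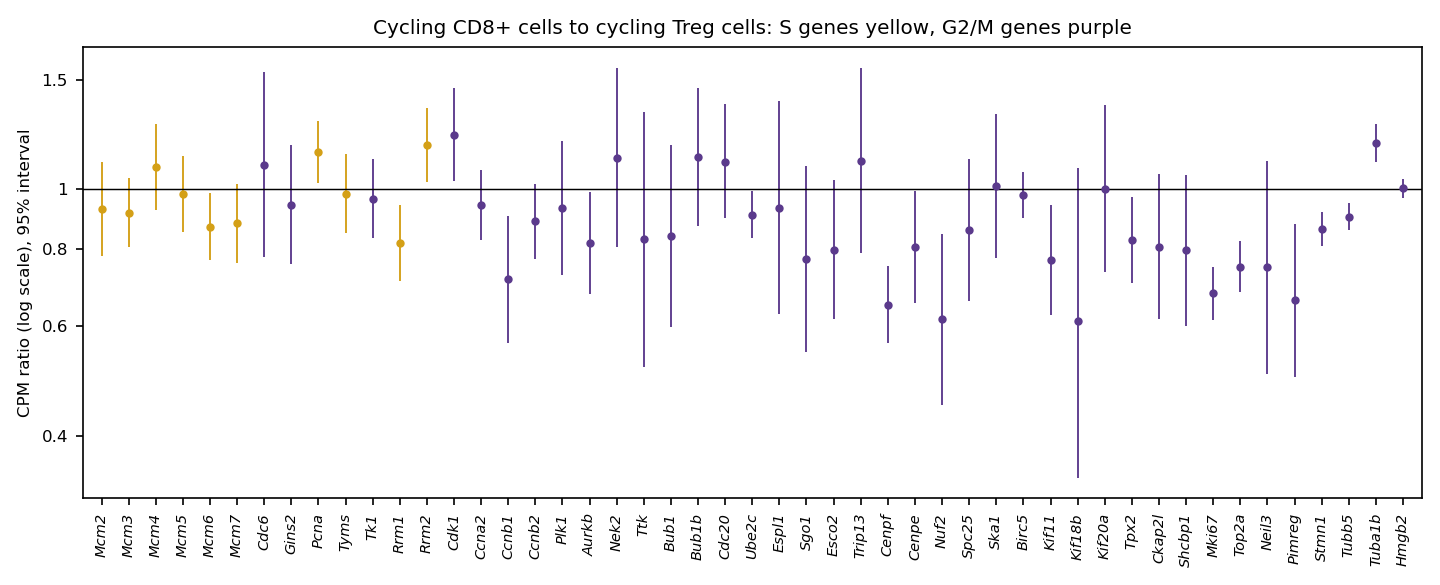
Ratio of summed CPM in cycling CD8+ to cycling T_reg_ cells (vertical axis, log scale) for each of the 49 genes (horizontal axis, grouped by role), with S genes in yellow, G2/M genes in purple, and bars for 95% conditional binomial intervals. *Mki67* at 0.678, *Cenpf* at 0.651 and *Top2a* at 0.749 lie below 1, and *Cdk1* at 1.22 and *Tuba1b* at 1.19 above it. The cells were called cycling by the 45 narrow genes among those shown.

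Cycling cells shared further expression that the call did not use. Of the 37 other replication genes, 37 were at least 1.5-fold higher in cycling than in other cells of the CD8+ lineage and 37 in T_reg_ cells, where 15.2% and 17.1% of all genes passed upward. The median ratios were 3.63 and 6.60. Of the 35 other mitosis genes it was 34 and 34, at medians of 8.48 and 11.5. The exception in both was *Pttg1*, which encodes securin, at 1.04 (0.893 to 1.20) and 0.794 (0.678 to 0.926). *Kif2c*, a microtubule depolymerase, reached 22.6 and 45.2. Histone genes of replication passed that fold in 10 of 12 and 11 of 12, with *Hist1h2ap* at 9.09 and 16.4 and *Hist1h1c* at 0.891 and 0.757.

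More regulators of the cycle were higher than lower in cycling cells. Of the G1 cyclins and their kinases 4 of 8 were at least 1.5-fold higher and 2 lower in CD8+ cells, and 4 higher and 0 lower in T_reg_ cells. Of the inhibitors 3 of 7 were higher and 1 lower in each of these lineages, and of 13 regulators around Rb, E2F and the DREAM complex 8 were higher and 0 lower in each. Over all genes 15.2% and 17.1% passed upward, and 18.5% and 21.4% downward, so 1 of 7 inhibitors lower is near the background. *Ccne1*, an E-type cyclin of the G1 to S step, was 3.72 times (2.74 to 5.08) as high in cycling CD8+ cells and 5.52 times as high in cycling T_reg_ cells, while *Ccnd2*, a D-type cyclin of G1, was at 0.517 and 0.770. The transcription factor *Foxm1*, which drives mitotic genes, was at 12.1 (6.14 to 26.6) and 15.5, and the repressor *E2f8* at 17.2 and 14.8. *Cdkn1b*, the inhibitor p27 of resting cells, was lower in all 3 lineages, at 0.441 (0.355 to 0.544) in CD8+, 0.460 in T_reg_ and 0.572 in T_conv_ cells. *Cdkn3*, a phosphatase grouped with the inhibitors, was higher, at 6 (4.28 to 8.55) in CD8+, 11.9 in T_reg_ and 16.8 in T_conv_ cells.

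Genes of quiescence fell with division in each lineage. At least 1.5-fold lower were 10 of 10 in cycling CD8+, 8 of 10 in T_reg_ and 10 of 10 in T_conv_ cells, where 18.5%, 21.4% and 20.8% of all genes passed downward. The medians were 0.286, 0.438 and 0.313. *Klf2*, which keeps T cells at rest and in circulation, stood at 135 against 507 CPM in CD8+ cells, a ratio of 0.267 (0.240 to 0.296), and *Btg1*, an antiproliferative gene, at 213 against 583 CPM. In T_reg_ cells *Klf2* was at 0.295 (0.268 to 0.324) and *Btg1* at 0.418 (0.388 to 0.450), so both fell there too.

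Genes of T cell function were lower more often than higher in cycling T_reg_ cells, and so were general T cell markers. At least 1.5-fold lower were 5 of 8 activation and checkpoint genes (median 0.635), 4 of 6 effector genes (median 0.517) and 3 of 4 genes linked to *Il1rl1*+ T_reg_ cells (median 0.533), and none was that much higher, where 21.4% of all genes passed downward. The 6 T cell markers summed to 2941 CPM in cycling and 4109 CPM in other T_reg_ cells, and the 5 T_reg_ markers to 2571 and 3972 CPM. *Foxp3* stood at 318 CPM in cycling and 640 CPM in other T_reg_ cells, a ratio of 0.496 (0.460 to 0.534), *Il1rl1* had a ratio of 0.396 (0.321 to 0.486) and *Areg*, which encodes amphiregulin, of 0.475 (0.443 to 0.509). Since 1 *Foxp3* UMI is enough for the T_reg_ call, deeper cells can enter it at a lower *Foxp3* level, and the part of depth in these ratios was not tested. In CD8+ cells 1 of 8 activation and checkpoint genes (median 0.894) and 3 of 6 effector genes (median 0.773) were at least 1.5-fold lower and none higher, where 18.5% of all genes passed downward. The T cell markers stood lower there too, at 3110 CPM in cycling and 3824 CPM in other cells. The effector genes ran from the chemokine *Ccl5* at 0.302 to *Gzmb*, a cytotoxic granule protease, at 1.24 (1.20 to 1.28), and the checkpoint genes from *Icos*, a costimulatory receptor, at 0.519 to *Pdcd1*, an inhibitory receptor, at 1.45. Of the 4 genes linked to *Il1rl1*+ T_reg_ cells, 2 were at least 1.5-fold lower in cycling CD8+ cells (median 0.532). In T_conv_ cells 3 of these 4 were at least 1.5-fold higher in cycling cells (median 1.65), where 28.0% of all genes passed upward. There 1 of 8 activation and checkpoint genes (median 0.925) and 0 of 6 effector genes (median 0.780) were that much lower, where 20.8% passed downward. Melanoma genes stood at 2353 CPM in cycling and 73.2 CPM in other T_conv_ cells. The difference between lineages was not tested. T cell markers stood at 2329 CPM in cycling and 3922 CPM in other T_conv_ cells.

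The tumor of origin could be assigned to few cells. Of the hashtag UMIs, 0.00757% matched 1 of the 4 tags, 1730 in all, so a tumor was assigned from 1 tag UMI or more, if every tag UMI of the cell named the same tumor. This gave 898 B16 and 149 B16–IL-33 cells, 935 of 1055 cells with a tag UMI had exactly 1, and 8 with tags of both were left out. Among T_reg_ cells, 15.4% (11.2 to 20.5%; 39 of 253) of B16 and 12.5% (4.73 to 25.2%; 6 of 48) of B16–IL-33 cells were cycling, a difference of −2.92 points (−12.2 to 10.5). Among CD8+ cells the shares were 23.1% (31 of 134) and 25.0% (5 of 20). The interval of the difference in shares included 0, and the T_reg_ difference was 7.47 points (−7.93 to 32.8) with the tags numbered 1 and −8.71 points (−19.0 to 8.72) with those numbered 2. It was 1.19 points among cells of 200 to 2500 genes with the same draw. The median depth of T_reg_ cells was 3753 UMIs with a B16 tag, 2643 with a B16–IL-33 tag and 2881 with none.

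The summed level of the narrow members was described for the tagged T_reg_ cells of this 1 pool. It was 1624 CPM (1559 to 1690) with a B16 tag and 982 CPM (851 to 1128) with a B16–IL-33 tag. The direction was not the same in both subsets: *Il1rl1*- cells stood at 1682 CPM (1615 to 1752; 267 cells) and 741 CPM (613 to 888; 43 cells), and *Il1rl1*+ cells at 480 CPM (332 to 671; 14 cells) and 1810 CPM (1442 to 2244; 14 cells). In CD8+ cells the levels were 2255 CPM (2164 to 2348) and 2178 CPM (1915 to 2467), with intervals that overlapped. These sums rest on few cycling cells, 39 and 6 in T_reg_ cells and 1 and 2 in *Il1rl1*+ cells. The intervals leave out variation between cells and between tumors, so they cannot show a difference between the tumor conditions.

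The TCR gave a measure of past division that does not use the members. Clones were cells of a lineage with the same Cell Ranger clonotype, and a clone of at least 2 cells was called expanded. Of CD8+ cells in expanded clones, 25.6% (20.7 to 30.9%; 76 of 297) were cycling, and of those seen once 16.8% (14.4 to 19.5%; 143 of 851), a difference of 8.79 points (3.23 to 14.7). The median depths were 5757.5 and 4707 UMIs, and the part of depth was not tested. The difference was 15.0 points with cells thinned to 2500 UMIs and, among cells of 200 to 2500 genes, 3.35 points (−1.52 to 9.15) with the same draw and 4.29 points (−0.641 to 10.1) with a new one, where its interval included 0.

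Cycling cells were spread over many clones. Of 107 expanded CD8+ clones, 48 held a cycling cell and 20 held at least 2. The largest clone had 14 cells, 2 of them cycling, and the next had 10, 4 of them cycling. T_reg_ cells had 60 expanded clones of at most 4 cells, with 18.4% of cells cycling against 13.1% of cells seen once, a difference of 5.36 points (−1.50 to 13.9). In T_conv_ cells the shares were 9.52% (6 of 63) and 6.07% (64 of 1055), a difference of 3.46 points (−2.71 to 13.6). Cells without a clonotype were cycling in 9.61% of CD8+ and 6.87% of T_reg_ cells, at lower depth.

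Promoters were compared because the members moved together. RefSeq promoters (build GRCm38.p6, 250 bases before to 50 after the gene start) were matched by symbol for 38 of 49 members, with 39 promoters since *Mcm7* has 2. Not matched were *Shcbp1*, *Kif20a*, *Aurkb*, *Ccna2*, *Pimreg*, *Ska1*, *Tpx2*, *Mcm4*, *Gins2*, *Stmn1* and *Esco2*. Letters were sought on both strands. CCAAT or its reverse complement ATTGG was in 79.5% (31 of 39) of member promoters and in 37.4% of all 32851 promoters. TTTGAA or its reverse complement TTCAAA, the core letters of the cell cycle homology region (CHR), was in 43.6% (17 of 39) and in 17.9% of all. An E2F word (TTTGGCGC, TTTCCCGC, TTTCGCGC or TTTGCCGC, or a reverse complement) was in 15.4% (6 of 39) and in 2.26% of all.

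By phase, the CHR core was in 55.2% (16 of 29) of G2/M promoters and in 1 of 10 S promoters. An E2F word was in 4 of 10 S promoters and in 6.90% (2 of 29) of the G2/M promoters, these being *Cdc6* and *Cdk1*. CCAAT or its complement was in 9 of 10 S and 22 of 29 (75.9%) G2/M promoters. Both words were in 43.6% (17 of 39) of member promoters and in 6.95% of all. Of the promoters with the CHR core, 17 of 17 in members and 2284 of 5878 in all also held CCAAT or its complement. The differences between these shares were not tested. A match of letters is a description and was not tested as a binding site.

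The 140 bases just before the start are printed 5′ to 3′ for the 4 G2/M members with the most UMIs, of 7 that hold both words in this stretch outside *Cdc6*, *Gins2*, *Tk1* and the broad genes. Capitals mark CCAAT and the CHR core, each on either strand.
Ube2c, chr2:164769789-164769928, plus strand: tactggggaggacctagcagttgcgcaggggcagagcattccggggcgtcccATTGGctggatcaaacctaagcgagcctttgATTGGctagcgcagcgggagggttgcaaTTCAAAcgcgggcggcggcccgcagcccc
Top2a, chr11:99024190-99024329, minus strand: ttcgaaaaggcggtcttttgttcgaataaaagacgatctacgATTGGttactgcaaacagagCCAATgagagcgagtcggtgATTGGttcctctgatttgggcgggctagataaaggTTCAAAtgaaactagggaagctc
Cdk1, chr10:69352913-69353052, minus strand: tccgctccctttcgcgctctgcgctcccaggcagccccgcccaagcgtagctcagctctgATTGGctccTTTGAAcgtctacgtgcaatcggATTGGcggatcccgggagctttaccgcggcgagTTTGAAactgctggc
Kif11, chr19:37376242-37376381, plus strand: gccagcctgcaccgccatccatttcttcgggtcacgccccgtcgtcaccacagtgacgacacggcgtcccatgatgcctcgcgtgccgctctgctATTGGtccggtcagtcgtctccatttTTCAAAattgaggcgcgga
In each of the 4, the last capital word before the start is the CHR core, and at least 1 CCAAT or its complement lies upstream of it.

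For S phase the same stretch is printed for *Mcm6* and *Cdc6*. Among members with a single promoter, these are the 2 of the S list, with *Tk1*, *Gins2* and *Cdc6* added to it, that hold an E2F word there. *Mcm7*, which has 2 promoters, was left out of this search. The E2F words are in capitals, and overlapping words run together.
Mcm6, chr1:128359706-128359845, minus strand: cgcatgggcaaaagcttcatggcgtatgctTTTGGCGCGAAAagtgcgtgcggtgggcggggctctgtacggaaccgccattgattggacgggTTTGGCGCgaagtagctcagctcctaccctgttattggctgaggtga
Cdc6, chr11:98908011-98908150, plus strand: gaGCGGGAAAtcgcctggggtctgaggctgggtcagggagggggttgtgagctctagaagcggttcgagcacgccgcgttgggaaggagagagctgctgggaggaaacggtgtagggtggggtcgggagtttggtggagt
*Mcm6*, at 98.1 CPM in CD8+ and 89.5 CPM in T_reg_ cells, and *Cdc6*, at 11.9 and 7.17 CPM, had the lowest and the highest CD8+ to T_reg_ ratio of the replication group.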

How the data were processed

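The values deposited by the authors were unnormalized counts: UMIs per gene for each cell barcode in the gene expression library, UMIs per tag for each barcode in the hashtag library, and UMIs per contig in the TCR library. The reference joined human genes to those of mouse (mm10). The submitters' processing notes list Cell Ranger 6.1.1, while the header of the deposited matrix names 3.1.0. Human features, 8562 UMIs, were left out.

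Sums, ratios and exact intervals were computed in Python 3.11.15 with NumPy 2.4.6, SciPy 1.17.1 and pandas 2.3.3, and figures in matplotlib 3.10.9. Ratios of summed CPM were called at 1.5-fold among genes with at least 20 UMIs in both groups together. Shares over all genes were taken in the main setting only, and for the 1.5-fold counts only. Counts of members in other settings, by direction or by interval therefore have no background. Differences of shares took square-and-add bounds. The ratio and thinning code was tested on simulated data. Doublets were kept, and 519 cells with at least 2 productive β chains were left out in an alternative. The other alternatives changed the gene and mitochondrial limits, thinning depth and draw, cycling threshold, lineage call, cell types, phase lists, clone and hashtag rules, weighting and UMI filter. The alternative thinning draw, and the alternatives that keep the main draw while cells are left out, were chosen after seeing the data. All other alternatives that change the cells also draw anew.

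All 49 members are named. Values are given for the 2 members of each role with the most UMIs and for those with the highest and lowest ratio, and for genes outside this rule where a count of few members is spelled out; other lists follow the same rule, and regulators and lineage genes were singled out after their values were seen. The members and lists were chosen with earlier results of these data known.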

Additional observations from a re-analysis of the deposited data

How the results depend on the processing

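The order of cycling shares, CD8+ over T_reg_ over T_conv_, was kept in 14 of 14 settings but not among cells of 1500 to 2500 UMIs, and the shares moved. With 200 to 2500 genes and the main draw kept the CD8+ and T_reg_ shares were 9.12% and 6.40%. With 200 to 2500 genes and a new draw they were 9.04%, 6.64% and, in T_conv_ cells, 3.59%, the S share of cycling CD8+ minus T_reg_ cells was −1.66 points, and 17 members were at least 1.5-fold higher in T_reg_ than T_conv_ cells, 17 in CD8+ than T_reg_ cells, and 20 lower in *Il1rl1*+ than *Il1rl1*- T_reg_ cells. For CD8+, T_reg_, T_conv_ and *Zbtb16*+ cells in turn, shares were 13.0%, 7.26%, 3.69% and 1.12% with thinning to 1000 UMIs, and 27.4%, 20.2%, 10.7% and 11.9% with 2500 UMIs. With 2500 UMIs *Il1rl1*+ minus *Il1rl1*- T_reg_ cells differed by −5.52 points and expanded minus single CD8+ clones by 15.0 points. Shares were 34.1%, 20.4%, 11.4% and 15.7% without thinning, 27.4%, 20.6%, 13.9% and 17.2% with at least 2 members, and 10.2%, 6.68%, 2.62% and 1.15% with at least 5. For the same cells, more UMIs and a lower threshold raise such a share by construction. The cells changed too: thinning to 2500 UMIs leaves out those of 1500 to 2500 UMIs, where 2.73% of CD8+ cells were cycling. Thinning to 1000 UMIs and no thinning take in cells under 1500 UMIs. The effects of depth and of the cells kept were not separated. In clean T cells the T_conv_ share was 4.67% with a new draw and 5.60% with the main draw, and 5 members were at least 1.5-fold higher in CD8+ than T_reg_ cells. With lineages called on thinned counts the T_reg_ share was 9.02% and the *Il1rl1* difference −6.25 points. With equal weight per cell 16 members were at least 1.5-fold higher in CD8+ than T_reg_ cells. With at least 50 UMIs 10 were at least 1.5-fold lower in *Zbtb16*+ than T_conv_ cells. Apart from construction, the cause was not tested. The count of members at least 1.5-fold higher in CD8+ than T_conv_ cells ranged from 32 to 48 over 5 alternatives. The difference between tumors in T_reg_ cells ranged from −10.2 to 7.47 points over 16 alternatives. By tag number it was 7.47 points (numbered 1) and −8.71 points (numbered 2), and no test over tags was run. The 89 *Zbtb16*+ cells and the 149 cells tagged B16–IL-33 limit what their shares can show, and a lineage called from 1 UMI takes in deep cells more readily than shallow ones.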

Other observations

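Cells that fell into none of the lineages were cycling in 6.90% (5.93 to 7.97%; 171 of 2479), and their melanoma genes summed to 2746 CPM and their myeloid genes to 2867 CPM.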
